A study of Homo sapiens with 24 samples.

Results

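The region described is a stretch of 400.0 kb on chromosome 17, band 17q21, that carries CDC6, RARA, TOP2A and IGFBP4. Its members are all peaks of the deposited accessibility table on chromosome 17 (build hg38) whose midpoint lies from 40200000 to 40600000. That gave 72 peaks of 189403, from 200 to 564 bp wide with a median of 243.5 bp. Each peak was given to the protein-coding gene whose interval holds its midpoint, or otherwise to the nearest gene. RARA received 15 peaks (11 inside the gene), IGFBP4 9 (3 inside), TOP2A 7 (1 inside) and CDC6 4 (3 inside). Of the neighbours, CCR7 received 14, TNS4 11, WIPF2 5, GJD3 4, SMARCE1 2 and RAPGEFL1 1. A low-count filter over the whole table left 70 of the 72 for testing, among 156745 peaks tested in all. The 2 peaks that missed the filter lie in WIPF2 and beside TOP2A, with mean levels of at most 0.562 CPM (a count divided by the library total and scaled to a fixed depth) in the vehicle and estradiol groups.

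The assay was ATAC-seq. A transposase cuts exposed DNA and leaves sequencing adapters there, so that more counts in a peak mean more open DNA. The cells were T47D, an established human luminal breast cancer line with estrogen receptor, and all results are from this line. There were 6 groups of 4 libraries. Cells held for 3 days in medium without phenol red and with charcoal-stripped serum, which removes steroids, received DMSO vehicle (0.1%) or 1 nM beta estradiol. Cells held for 1 day in complete medium received DMSO vehicle, or 100 nM of fulvestrant, raloxifene or tamoxifen. Every treatment lasted 1 h. Starved and complete cultures thus differed in serum, phenol red, days of culture and plated cell number together, and these cannot be told apart. Whether replicates came from separate cultures is not stated in the labels, and the p-values cover only library-to-library spread, which may be technical.

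Totals ran from 2422981 to 12140005 counts per library, apart from replicate 4 of fulvestrant with 434598. In that library 13 of the 72 peaks had no count and 1 count stood for 1.54 CPM. Levels are given as CPM on library sizes scaled by TMM, a between-library scaling of edgeR. This scaling lowered the members' sum in fulvestrant replicate 4 to 534 CPM, while it was 796 CPM on the plain total. Replicates 3 and 4 of the complete vehicle carry a treatment label that names fulvestrant, but their titles say DMSO, and they were grouped by title. Peaks lay within 2 kb of 8 of 8 luminal breast markers, the highest per gene having a median of 32.5 CPM, against 4 of 5 basal or mesenchymal markers (median 5.51 CPM). KRT14 had no peak. Against this order, basal TP63 reached 20.6 CPM and luminal TFF1 only 3.79 CPM.

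The estrogen receptor is a nuclear receptor that binds DNA when it holds estradiol, most often at sites far from promoters, and its binding is accompanied by local opening of chromatin. Fulvestrant is a steroidal antagonist that also leads to loss of the receptor, and raloxifene and tamoxifen are non-steroidal modulators that hold it in a different shape. RARA encodes retinoic acid receptor alpha, a ligand-activated transcription factor, and IGFBP4 a secreted protein that binds insulin-like growth factors, and both are known estrogen-induced genes in breast cancer cells. CDC6 loads the replicative helicase at origins before S phase, and TOP2A is the DNA topoisomerase that untangles chromosomes in dividing cells.

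Promoters of CDC6, RARA and TOP2A are shown first, because the peaks that overlap them were not called in any comparison below. The sequences are the bases before a RefSeq start site (GRCh38.p14), 5′ to 3′ on the gene's strand. Capitals mark matches, on both strands, to any of 7 motifs. These are the estrogen response element (GGTCA, 3 bases of any kind, TGACC), its half-site AGGTCA, AP-1 (TGANTCA), forkhead (TGTTTAC), E2F (TTTCCCGC, TTTGGCGC or TTTCGCGC), the CCAAT box (CCAAT) and the SP1 box (GGGCGG). A half-site can overlap the full element where an A precedes or a T follows it, and SP1 boxes can overlap each other.
CDC6, chr17:40287629-40287878, plus strand: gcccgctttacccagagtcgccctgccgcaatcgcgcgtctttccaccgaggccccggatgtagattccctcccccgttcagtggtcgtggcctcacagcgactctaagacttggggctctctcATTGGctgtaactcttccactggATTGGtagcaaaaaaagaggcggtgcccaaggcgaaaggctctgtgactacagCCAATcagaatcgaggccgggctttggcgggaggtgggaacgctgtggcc
RARA first start, chr17:40308930-40309179, plus strand: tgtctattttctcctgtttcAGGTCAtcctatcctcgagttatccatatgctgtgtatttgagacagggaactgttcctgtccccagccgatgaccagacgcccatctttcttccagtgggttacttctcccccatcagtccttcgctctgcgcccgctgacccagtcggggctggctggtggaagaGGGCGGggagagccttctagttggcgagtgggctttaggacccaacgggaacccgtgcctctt
RARA second start, chr17:40317995-40318244, plus strand: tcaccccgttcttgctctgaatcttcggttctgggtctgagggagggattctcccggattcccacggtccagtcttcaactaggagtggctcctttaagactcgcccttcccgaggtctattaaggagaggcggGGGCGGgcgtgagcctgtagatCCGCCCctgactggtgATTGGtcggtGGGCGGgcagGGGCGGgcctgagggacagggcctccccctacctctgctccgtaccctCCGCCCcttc
TOP2A, chr17:40417897-40418146, minus strand: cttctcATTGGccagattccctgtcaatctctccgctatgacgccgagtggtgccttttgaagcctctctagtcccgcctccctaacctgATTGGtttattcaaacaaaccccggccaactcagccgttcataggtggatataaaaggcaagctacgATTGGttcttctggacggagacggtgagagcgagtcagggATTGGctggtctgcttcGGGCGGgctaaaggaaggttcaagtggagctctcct
The CDC6 window holds 3 CCAAT boxes and the TOP2A window 4, and 32% of the 35116 promoter windows of the same length (250 bases) hold at least 1. The first RARA start has 1 half-site, found in 12.1% of windows, and 1 SP1 box, found in 42.6%. At the second RARA start there are 5 SP1 boxes and 1 CCAAT box. The IGFBP4 window, chr17:40443200-40443449, holds 1 SP1 box, and no member peak overlaps it. None of these windows holds the full estrogen response element (0.0399% of all windows), an AP-1 motif (6.57%), a forkhead motif (2.98%) or an E2F motif (2.32%) in these spellings.

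For peaks away from start sites no genome was used, but the promoter table covers 156 bases of the strongest RARA peak, since the non-coding gene LOC105371934 starts inside it (base 40322524, minus strand). They make up 59.5% of the peak and are shown because this peak has the highest mean of the region over the 24 libraries (72.3 CPM). Capitals mark 13 bases, chr17:40322492-40322504, that match the estrogen response element with 1 changed base.
RARA peak, chr17:40322475-40322630, minus strand: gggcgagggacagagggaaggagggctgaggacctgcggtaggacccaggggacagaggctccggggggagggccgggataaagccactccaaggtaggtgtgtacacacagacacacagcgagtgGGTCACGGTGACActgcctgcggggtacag
The change is C13A, counted from 1 at the 5′ end of the element (element base, position, base found). This search with at most 1 change was added after the sequence had been seen. Of 35116 promoter windows of 156 bases at the same offset, 0.447% hold such a match and 0.0456% the unchanged element. No upstream window of CDC6, RARA, TOP2A or IGFBP4 holds one, against 0.678% of all 250-base windows. A match is a description of letters, not of binding.

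Estradiol against vehicle in starved cells asks what 1 h of hormone does to this region. Of the 70 tested members 9 were called higher and 0 lower (edgeR quasi-likelihood test, adjusted p under 0.05 over all tested peaks). That is 12.9% higher, with 0.813% of all tested peaks called higher and 0.0223% lower. Neither these shares nor those of the later comparisons were matched for peak level, and peaks with more counts are called more easily. Over all peaks of the table the median of the mean levels was 1.98 CPM, and most members lay above it. The members' median log2 fold change was 0.26, against -0.01 over all tested peaks, and 62 of 70 were above 0. At an unadjusted p under 0.05 there were 24 members (34.3%, beside 5.99% of all tested peaks), and DESeq2 called 7 higher and 0 lower (1123 and 10 over all peaks). The 9 peaks lie in 3 places: 2 in RARA, 4 in and beyond IGFBP4, and 3 on the far side of CCR7. No peak of CDC6, TOP2A, TNS4, GJD3 or WIPF2 was called. Within replicates 1 and 2 alone 9 members were called higher, within replicates 3 and 4 alone 6, and without replicate 1 of the starved vehicle 6. The 9 within replicates 1 and 2 were not the same 9, since chr17:40579625-40579825 was not among them. The labels name no batch, and this split of the replicates was taken over from earlier work on these data.

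**Figure D1:**
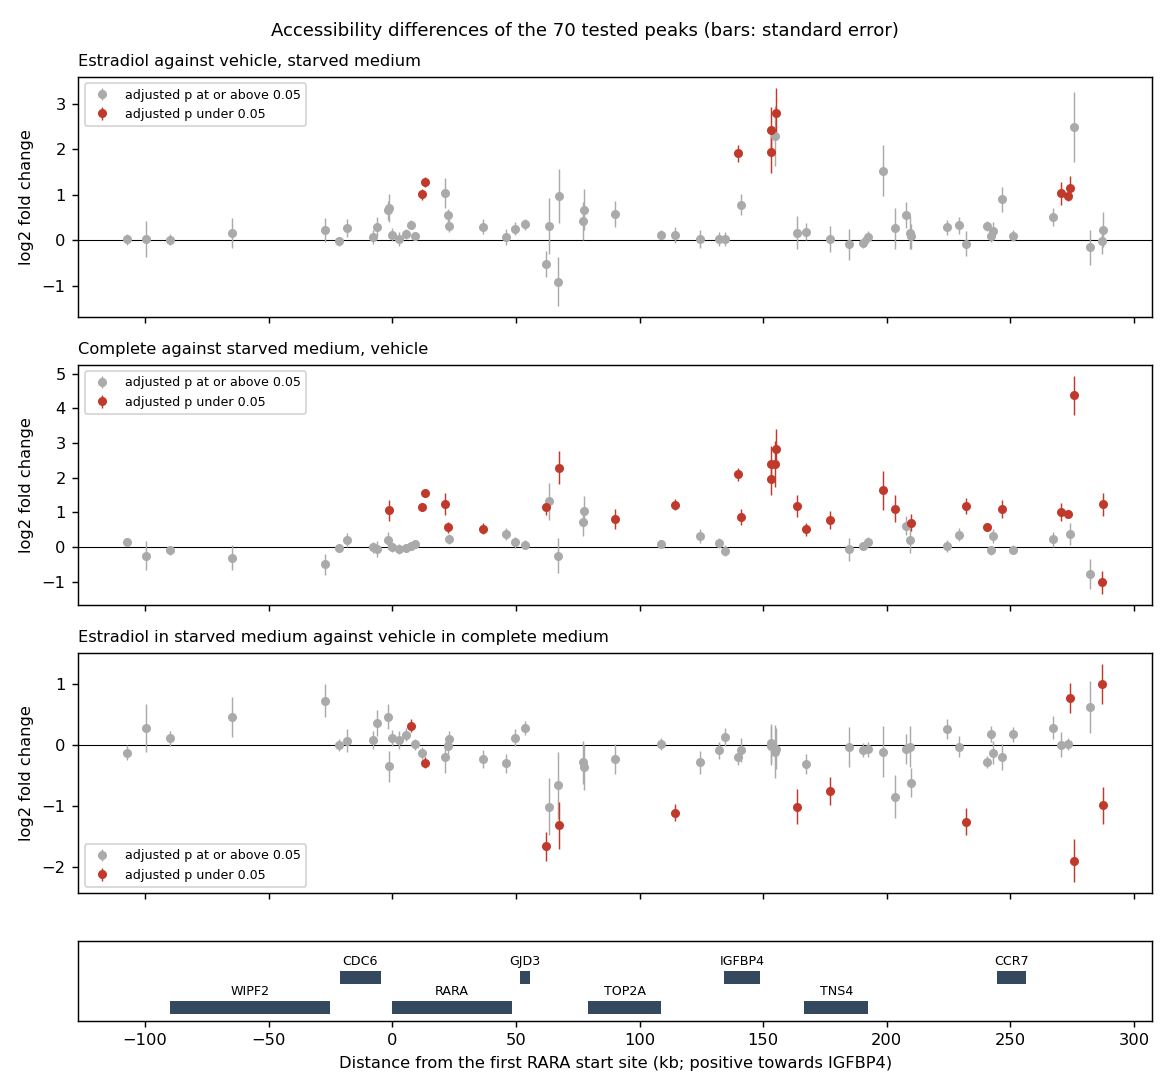
Log2 fold changes (points) with standard errors (bars) of the 70 tested peaks, by distance in kb from the first RARA start site, for estradiol against vehicle in starved medium, complete against starved medium, and estradiol in starved medium against vehicle in complete medium; gene intervals are drawn underneath. Red points passed adjusted p under 0.05, 9 in the top panel, 30 in the second and 12 in the third, and in the top panel they form 3 groups near RARA, IGFBP4 and beyond CCR7.

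Inside RARA, both called peaks lie between 3.13 and 4.25 kb downstream of the second start site. The stronger, chr17:40322369-40322630, is the one whose bases are printed above. It held 28.1, 23.7, 37.8 and 32.7 CPM in replicates 1 to 4 of the starved vehicle, and 64.6, 65.9, 79.7 and 76.4 CPM with estradiol. Every estradiol library was above every vehicle library. The means were 30.6 ± 6.07 and 71.7 ± 7.53 CPM (SD, n = 4), and the log2 fold change was 1.28 (SE 0.114, adjusted p = 1.91e-13). It was 1.33 within replicates 1 and 2 and 1.21 within replicates 3 and 4.

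The second RARA peak, chr17:40321254-40321506, lies about 1 kb nearer the start. Vehicle libraries held 18.4, 17.6, 23.6 and 19.8 CPM and estradiol libraries 37.0, 32.9, 42.4 and 42.3 CPM. The groups did not overlap, and the log2 fold change was 1.01 (SE 0.116, adjusted p = 4.88e-10). All 15 RARA peaks had a log2 fold change above 0 with estradiol, from 0.03 to 1.28 with a median of 0.33, and 13 of them did not pass the test. Among those is chr17:40330433-40330638, with a log2 fold change of 1.04 (SE 0.323, adjusted p = 0.154), at 1.37 CPM with vehicle and 2.72 CPM with estradiol.

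IGFBP4 had the largest changes of the 4 genes in this comparison. Its main peak, chr17:40448739-40449066, lies inside the gene, 5.45 kb downstream of the start. The starved vehicle libraries held 8.72, 10.6, 9.45 and 10.5 CPM, and the estradiol libraries 28.8, 34.4, 43.4 and 42.1 CPM. The groups stood far apart, with 9.82 ± 0.894 CPM against 37.2 ± 6.88 CPM (SD, n = 4) and a log2 fold change of 1.92 (SE 0.189, adjusted p = 2.57e-08). Within replicates 1 and 2 it was 1.72, and within replicates 3 and 4 it was 2.07.

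Beyond the end of IGFBP4, at 18.8 to 21 kb from its start, 4 low peaks stand side by side. The first, chr17:40462150-40462362, had 6, 2, 0 and 8 counts in the vehicle libraries and 16, 30, 38 and 24 with estradiol. Its log2 fold change was 2.43 (SE 0.493, adjusted p = 0.00145). The last, chr17:40464373-40464573, had 1, 2, 1 and 4 counts with vehicle and 9, 32, 19 and 11 with estradiol. Its log2 fold change was 2.79 (SE 0.554, adjusted p = 0.0007). It was 3.62 within replicates 1 and 2 (adjusted p = 0.00311) and 2.01 within replicates 3 and 4, where the call was lost (adjusted p = 0.517). Over all 4 replicates the ratio of the summed counts, scaled by library size, was 7.26 with an exact 95% interval from 3.49 to 17.5 that covers counting error only. In both peaks every estradiol library was above every vehicle library. Between them, chr17:40462382-40462607, which the rule for named peaks does not cover, was called at 1.94 (SE 0.456, adjusted p = 0.00917), and lost the call without replicate 1 or 2 of the starved vehicle or replicate 2 of estradiol. The fourth, chr17:40463636-40464200, also outside that rule, had 2.29 (SE 0.659, adjusted p = 0.205) and was not called.

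On the far side of CCR7, the gene of a chemokine receptor of lymphocytes, 3 peaks were called between 14.3 and 17.9 kb from the gene. They are nearest to CCR7 by position only. The highest of them, chr17:40582343-40582592, held 21.4, 21.4, 19.3 and 20.7 CPM with vehicle and 45.3, 41.4, 39.3 and 39.0 CPM with estradiol. Its replicates were close together, and the log2 fold change was 0.98 (SE 0.117, adjusted p = 2.49e-09). A weaker neighbour, chr17:40583269-40583571, rose from 3.09 ± 0.928 to 6.19 ± 1.13 CPM (SD, n = 4; log2 fold change 1.15, SE 0.272, adjusted p = 0.0116). The third, chr17:40579625-40579825, went from 2.85 to 5.14 CPM (log2 fold change 1.03, SE 0.258, adjusted p = 0.0203). Both weaker peaks lost the call with DESeq2, with the older edgeR fit, within replicates 3 and 4, and without replicate 1 or replicate 4 of the starved vehicle. The first of them also lost it without replicate 2 of estradiol, and the second without replicate 2 of the starved vehicle or replicate 3 of estradiol. The second lost it as well within replicates 1 and 2 (edgeR adjusted p = 0.815) and with loess offsets, another scaling.

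**Figure D2:**
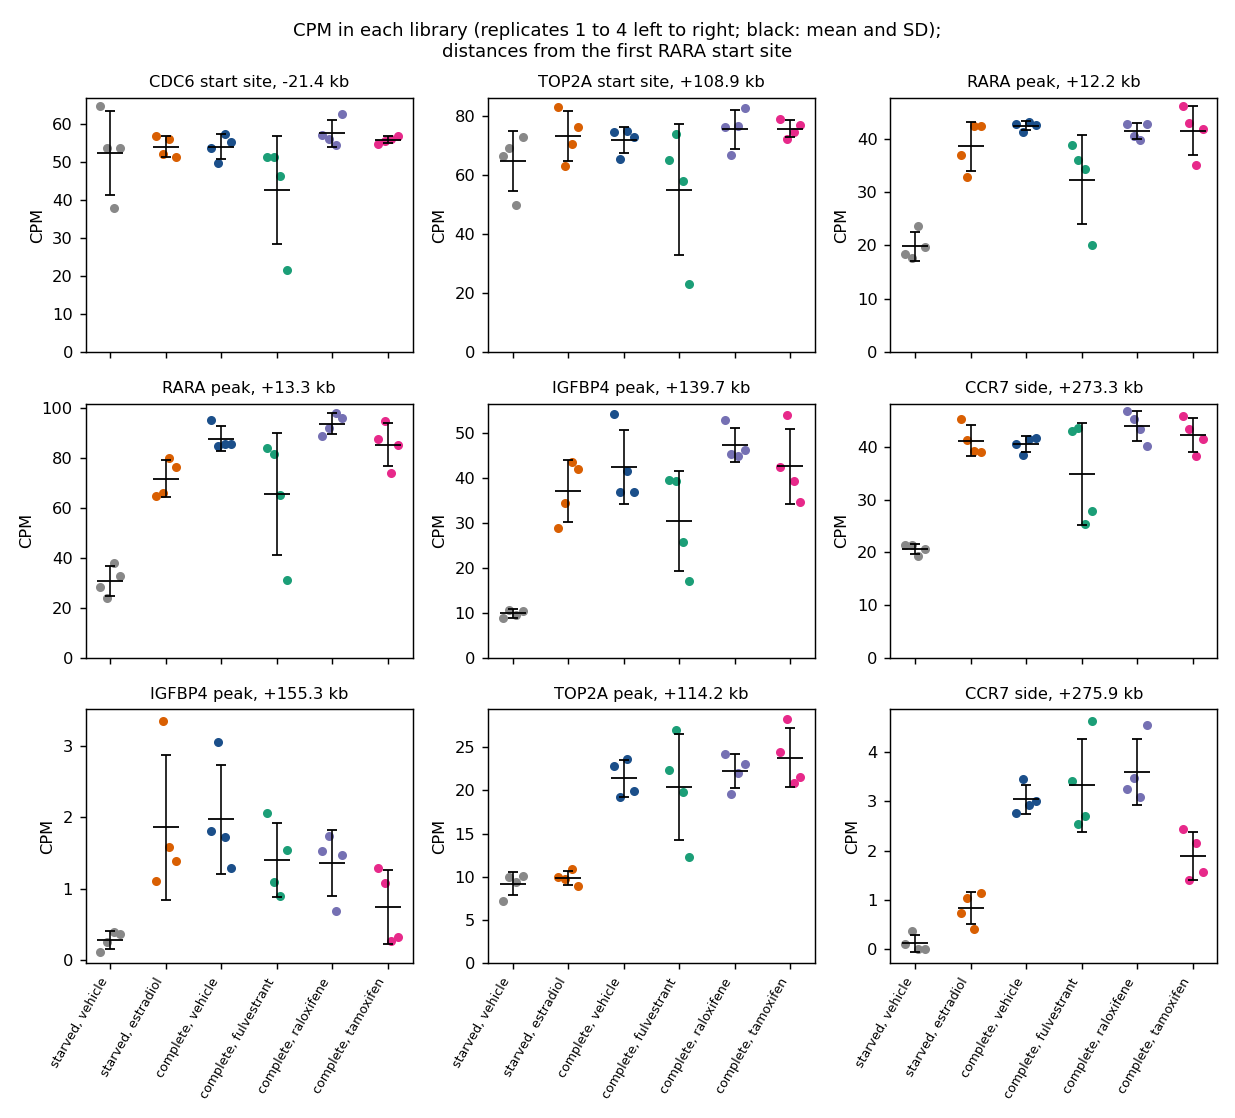
CPM of 9 peaks in each of the 24 libraries, with replicates 1 to 4 from left to right in each group and black marks for mean and SD; titles give the distance from the first RARA start site. The start-site peaks of CDC6 and TOP2A overlap between starved vehicle, estradiol and complete vehicle, the RARA, IGFBP4 and first CCR7-side peaks are higher with estradiol and in complete medium, and the TOP2A peak at 114.2 kb and the CCR7-side peak at 275.9 kb reach their higher level only in complete-medium groups; fulvestrant replicate 4 is the shallow library.

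The start-site peaks of the 4 genes were not called. At CDC6 the start-site peak, chr17:40287639-40287856, held 64.6, 53.6, 37.8 and 53.6 CPM with vehicle and 56.7, 52.1, 55.9 and 51.3 CPM with estradiol. The ranges overlapped, and the 95% interval of the log2 fold change ran from -0.21 to 0.18. The TOP2A start-site peak, chr17:40417915-40418176, had means of 64.8 ± 10.2 and 73.3 ± 8.53 CPM (SD, n = 4), with an interval from -0.08 to 0.32. The peaks at the first 2 RARA starts, chr17:40309052-40309292 and chr17:40318061-40318313, had intervals from -0.16 to 0.40 and from -0.09 to 0.28. At IGFBP4 the peak nearest the start, chr17:40443713-40443922, lies 0.367 kb inside the gene and its interval ran from -0.26 to 0.32. A change of the size seen at the RARA and IGFBP4 inner peaks lies outside all 5 intervals. No peak overlaps the third RARA start, and the nearest, 3.57 kb inside, chr17:40345635-40345842, was at 10.9 CPM with vehicle and 12.2 CPM with estradiol (adjusted p = 0.888).

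Complete against starved medium, both with vehicle, compares cells in full serum with starved cells, along with the other culture differences given at the start. Here 29 of 70 members were called higher and 1 lower, which is 41.4% and 1.43%, with 7.93% of all tested peaks called higher and 9.92% lower. The median log2 fold change was 0.37 over the members and 0.02 over all tested peaks. DESeq2 called 23 higher and 0 lower (8301 and 11848 over all peaks). The 29 were 6 peaks each of RARA, IGFBP4, TNS4 and CCR7, 3 of TOP2A, and 1 each of GJD3 and SMARCE1. No peak of CDC6 or WIPF2 was called. Within replicates 1 and 2 alone 25 were called higher and within replicates 3 and 4 alone 12.

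The peaks that rose with estradiol were mostly also higher in complete medium. This held for 8 of the 9, which are 88.9% of the estradiol calls and 27.6% of the medium calls. But both comparisons share the starved vehicle libraries, so the overlap is not independent. The same overlap over all tested peaks was not counted, so it is not shown to be particular to this region. The stronger RARA peak held 95.2, 84.5, 85.5 and 85.4 CPM in complete medium, with a log2 fold change of 1.57 over the starved vehicle (SE 0.113, adjusted p = 2.37e-18). The main IGFBP4 peak held 54.2, 36.9, 41.6 and 36.9 CPM, with 2.11 (SE 0.187, adjusted p = 4.06e-10). In neither peak did the complete and starved vehicle libraries overlap. The exception of the 9 was chr17:40583269-40583571 on the CCR7 side, which stood at 3.09 ± 0.928 CPM in starved and 3.61 ± 0.698 CPM in complete vehicle libraries (log2 fold change 0.38, SE 0.313, adjusted p = 0.46).

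Other peaks were higher in complete medium without a call for estradiol. The clearest is upstream of TOP2A, chr17:40423245-40423475, 5.46 kb before the start. It held 7.25, 10.0, 9.45 and 10.1 CPM in starved vehicle, 9.95, 9.74, 10.9 and 8.97 CPM with estradiol, and 22.8, 19.3, 23.7 and 20.0 CPM in complete vehicle. The estradiol and starved vehicle libraries overlapped, and all complete libraries lay above both. The log2 fold change was 1.23 for medium (SE 0.149, adjusted p = 5.13e-10) and 0.12 for estradiol (SE 0.169, 95% interval from -0.22 to 0.46).

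Near GJD3, which encodes a gap junction protein, the peak chr17:40371354-40371560 was likewise higher in complete medium without a call for estradiol. Starved vehicle libraries held 3.06, 4.40, 3.94 and 2.59 CPM, estradiol libraries 2.70, 2.09, 2.17 and 2.4 CPM, and complete vehicle libraries 10.4, 5.36, 6.88 and 6.32 CPM. The medium log2 fold change was 1.14 (SE 0.227, adjusted p = 8.55e-05) and the estradiol one -0.52 (SE 0.288, adjusted p = 0.906), with 3 of 4 estradiol libraries below every vehicle library. Another peak of this kind, chr17:40376585-40376825, lies between GJD3 and TOP2A and had 4, 8, 0 and 4 counts in starved vehicle, 9, 12, 6 and 12 with estradiol and 31, 28, 13 and 17 in complete vehicle. It was called for medium (log2 fold change 2.29, SE 0.481, adjusted p = 0.000206) and not for estradiol (0.98, SE 0.586, adjusted p = 0.946).

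The largest medium difference of the region was at chr17:40584989-40585189, 19.6 kb beyond CCR7. It had 1, 3, 0 and 0 counts in starved vehicle, 6, 10, 5 and 9 with estradiol and 26, 27, 29 and 21 in complete vehicle. The 3 groups did not overlap, at 0.12, 0.835 and 3.04 CPM. In complete medium the scaled ratio of counts over starved vehicle was 23.2, with an exact 95% interval from 8.79 to 86.8 for counting error (adjusted p = 2.05e-09). With estradiol the ratio was 6.14, from 2.16 to 24, and the test did not pass (adjusted p = 0.143).

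No start-site peak of the 4 genes was called between media. Means in starved and complete vehicle were 52.4 and 54.0 CPM at CDC6, 64.8 and 72.1 CPM at TOP2A, 62.0 and 65.0 CPM at the second RARA start, and 16.4 and 14.6 CPM at the IGFBP4 peak nearest the start, with no adjusted p below 0.533. The peak 3.57 kb inside the third RARA start was called at 0.54 (SE 0.162, adjusted p = 0.0123). It lost the call in 6 of 38 alternatives, among them DESeq2 and leaving out replicate 3 of the complete vehicle or replicate 1 or 2 of the starved vehicle. In TOP2A itself the only peak inside the gene, chr17:40399185-40399473, was called at 0.80 (SE 0.287, adjusted p = 0.0399). The call was lost in 8 of 38 alternatives, among them DESeq2 and leaving out replicate 1 or 2 of the complete vehicle or replicate 1, 2 or 3 of the starved vehicle. The single lower peak, chr17:40596217-40596418 between CCR7 and SMARCE1, went from 3.57 ± 1.33 to 1.57 ± 0.244 CPM (SD, n = 4; log2 fold change -1.02, SE 0.341, adjusted p = 0.0262). This call was lost in 10 of 37 alternatives, among them without replicate 1 or 3 of the complete vehicle and without replicate 2, 3 or 4 of the starved vehicle.

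Estradiol in starved medium against vehicle in complete medium asks how near 1 h of hormone brings the starved cells to the complete-medium level. Of 70 members 3 were higher with estradiol and 9 lower (1 and 5 with DESeq2, 6 higher with the replicate block, and 5 lower without replicate 3 of estradiol), with 9.39% of all tested peaks higher and 7.25% lower. Of the 29 peaks higher in complete medium, 20 did not differ by this test and 9 were lower with estradiol. All 6 IGFBP4 peaks were among the 20. The same split over all tested peaks was not counted. At the main IGFBP4 peak the log2 difference was -0.19 with a 95% interval from -0.48 to 0.10, and at the highest CCR7-side peak it was 0.02 from -0.18 to 0.22. The second RARA peak had -0.13 from -0.33 to 0.06. The main IGFBP4 peak differed between replicate sets, with -0.54 (adjusted p = 0.0014) within replicates 1 and 2 and 0.15 (adjusted p = 0.654) within replicates 3 and 4. For the low IGFBP4 peaks the intervals were wide, from -0.61 to 0.66 at chr17:40462150-40462362 and from -0.72 to 0.60 at chr17:40464373-40464573.

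Of the 9 peaks still below the complete-medium level, the stronger RARA peak was nearest to it, at -0.29 (SE 0.0954, adjusted p = 0.0267). It was the only one of the 9 called higher for estradiol. Its difference was -0.47 within replicates 1 and 2 (adjusted p = 3.78e-05) and -0.10 within replicates 3 and 4 (adjusted p = 0.769). The other 8 had not been called for estradiol. They include the GJD3-side peak at -1.66 (SE 0.233, adjusted p = 6.57e-08), the peak upstream of TOP2A at -1.11 (SE 0.138, adjusted p = 2.2e-09), the peak between these genes at -1.32 (SE 0.385, adjusted p = 0.0104) and the one beyond CCR7 at -1.90 (SE 0.351, adjusted p = 2.9e-05). Outside the rule for named peaks, chr17:40541007-40541265 on the near side of CCR7 was at -1.26 (SE 0.219, adjusted p = 1.03e-05). The others were 2 TNS4 peaks at -1.01 and -0.76 and a SMARCE1-side peak at -0.99. Higher with estradiol than in complete medium were the CCR7-side peak chr17:40583269-40583571 at 0.77 (SE 0.248, adjusted p = 0.0214), the peak that fell in complete medium at 1.01 (SE 0.327, adjusted p = 0.0224), and, named after its values were seen, chr17:40316551-40316908 in RARA at 0.32 (SE 0.1, adjusted p = 0.017). These 3 calls went to 0 without the vehicle libraries with conflicting labels.

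**Figure D3:**
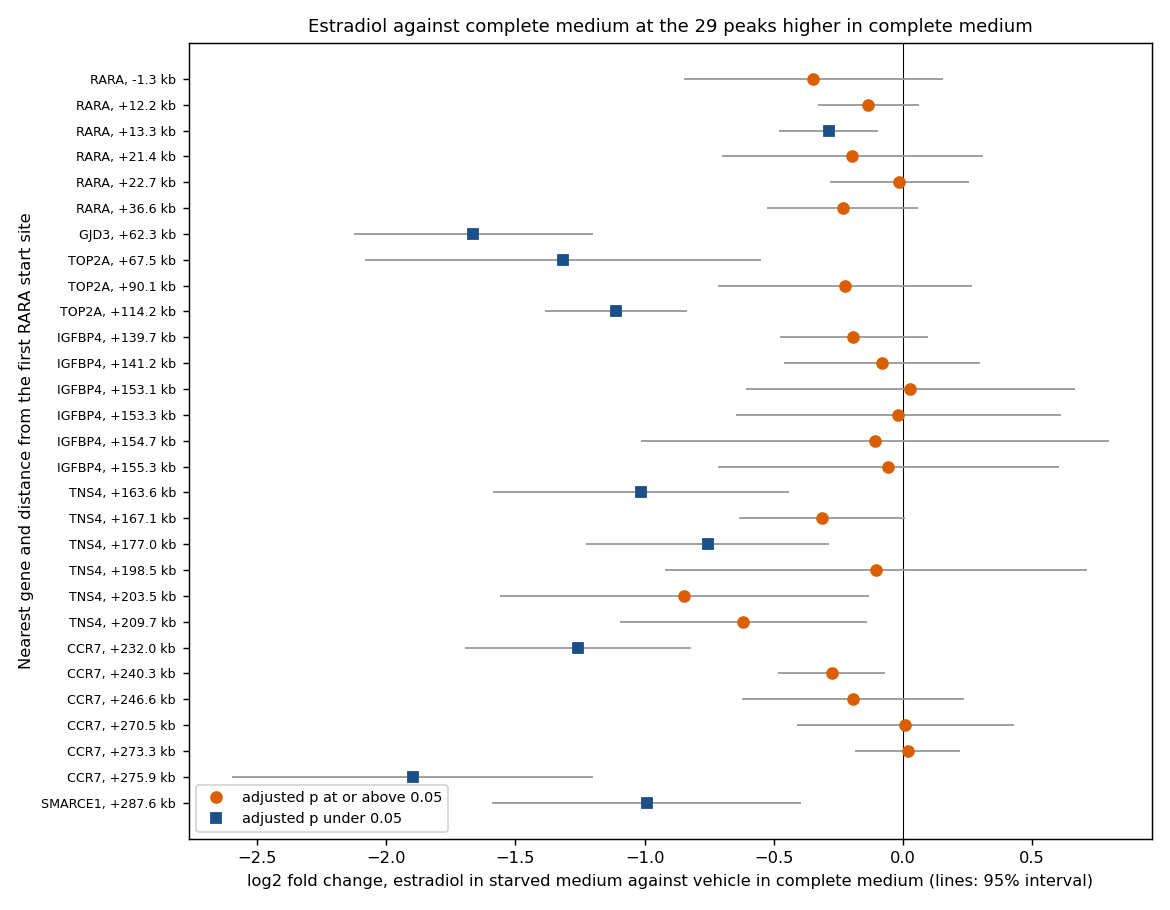
Log2 fold change with 95% interval (lines) of estradiol in starved medium against vehicle in complete medium at the 29 peaks higher in complete than starved medium, ordered by position, with the nearest gene and the distance from the first RARA start site. Blue squares passed adjusted p under 0.05 (9 peaks, all left of 0), orange circles did not (20 peaks, among them all 6 of IGFBP4).

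Summed over its peaks, each gene's level can be followed through the 6 groups. The sums mix peaks that moved with peaks that did not. RARA stood at 292 ± 14.7 CPM in starved vehicle, 396 ± 25.9 with estradiol and 400 ± 14.1 in complete vehicle, while the antagonist groups held 313 ± 98.4 (fulvestrant), 400.4 ± 10.9 (raloxifene) and 379 ± 35.0 CPM (tamoxifen; SD, n = 4). Its starved vehicle libraries (278 to 311 CPM) lay below all estradiol libraries (368 to 420 CPM). For IGFBP4 the sums were 50.4 ± 2.52, 91.8 ± 11.5 and 98.5 ± 14.8 CPM in starved vehicle, estradiol and complete vehicle, and for the antagonists in the same order 75.9 ± 19.5, 101 ± 8.84 and 95.1 ± 15.5 CPM. From starved vehicle upwards the order of both genes was fulvestrant next, then estradiol, tamoxifen and complete vehicle in different orders, and raloxifene highest, and all neighbours in these orders overlapped. Between starved vehicle and fulvestrant the overlap rests on the shallow fulvestrant replicate 4. Without it the RARA sums with fulvestrant were at least 315.3 CPM, above the 310.8 CPM of the highest starved vehicle library, and the IGFBP4 sums at least 77.4 CPM, above 53.6 CPM.

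TOP2A ran from 78.5 ± 11.4 CPM in starved vehicle through 90.7 ± 8.35 with estradiol to 104 ± 4.41 in complete vehicle. In its order only estradiol and complete vehicle were neighbours without overlap, at most 98.3 CPM against at least 98.5 CPM. CDC6 lay between 62.2 ± 17.9 CPM with fulvestrant and 79.0 ± 3.75 CPM with raloxifene, with starved vehicle at 74.1 ± 11.9 CPM and overlap between all neighbours. The fulvestrant means depend on the shallow replicate 4. Without it they were 360 ± 38.3 CPM for RARA, 85.2 ± 7.02 for IGFBP4, 98.0 ± 11 for TOP2A and 71.1 ± 2.37 for CDC6.

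The antagonists were each compared with vehicle in complete medium after 1 h. None of the 70 members was called in either direction for fulvestrant, raloxifene or tamoxifen. Among all tested peaks 0% were called for fulvestrant and tamoxifen, and for raloxifene 0.000638% higher (1 peak) and 0% lower. At an edgeR unadjusted p under 0.05 there were 6 members for fulvestrant, 4 for raloxifene and 4 for tamoxifen (8.57%, 5.71% and 5.71%). Over all tested peaks there were 6210, 5970 and 6478 (3.96%, 3.81% and 4.13%). DESeq2 also called 0 in each. Below 0 were 50 of 70 members with fulvestrant, 37 with raloxifene and 56 with tamoxifen, with medians of -0.06, -0.02 and -0.11. Over all tested peaks the medians were -0.010, -0.000 and 0.002.

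The members' medians differed between the replicates. For fulvestrant the median was -0.05 within replicates 1 and 2 and -0.27 within replicates 3 and 4. For tamoxifen it was -0.02 and -0.21, and for raloxifene -0.06 and 0.02. Replicates 3 and 4 of the complete vehicle are those with the conflicting label. Without them the median was -0.14 for fulvestrant, -0.025 for raloxifene and -0.12 for tamoxifen, and again no member was called. Without the 2 shallow libraries the fulvestrant median was -0.06, with 48 of 70 below 0.

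At the stronger RARA peak and the main IGFBP4 peak the intervals limit how far 1 h of antagonist moved accessibility. The stronger RARA peak held 83.7, 81.4, 65.2 and 30.9 CPM with fulvestrant, 88.6, 92.1, 97.8 and 95.9 CPM with raloxifene and 87.5, 94.7, 73.7 and 84.9 CPM with tamoxifen, beside the vehicle values of 84.5 to 95.2 CPM. The 4 fulvestrant libraries were below all vehicle libraries, the other 2 groups overlapped with vehicle. Fulvestrant replicate 4 is the shallow library, and replicates 1 and 2 lay only just under the lowest vehicle value. The fulvestrant log2 fold change was -0.13 within replicates 1 and 2 (edgeR adjusted p = 0.987) and -0.54 within replicates 3 and 4 (edgeR adjusted p = 0.279). Over all replicates the log2 fold changes of the 3 antagonists were -0.22 (95% interval from -0.43 to -0.02, adjusted p = 1), 0.09 (from -0.10 to 0.28) and -0.04 (from -0.24 to 0.15). The main IGFBP4 peak had -0.28 (from -0.60 to 0.03), 0.15 (from -0.13 to 0.43) and -0.02 (from -0.32 to 0.27). All 6 intervals leave out the drop to the starved level, which was 1.57 and 2.11 at these peaks. Low peaks are not bounded in this way. At chr17:40330433-40330638 in RARA, not called for estradiol, the medium difference was 1.24. Intervals there ran from -1.47 to -0.22 with fulvestrant and from -1.32 to -0.16 with tamoxifen, and both include that drop. With raloxifene the interval ran from -0.40 to 0.58 and leaves it out. At the second RARA start, a peak not called for estradiol, fulvestrant had -0.26 (from -0.45 to -0.06, adjusted p = 1), about as low as at the responsive RARA peak.

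Each antagonist's smallest p fell on another peak. For fulvestrant it was the low RARA peak chr17:40330433-40330638, with 21, 13, 11 and 0 counts beside 28, 31, 23 and 26 with vehicle (log2 fold change -0.85, SE 0.315, edgeR unadjusted p = 0.00871, adjusted p = 1). Scaled for depth these were 1.886, 1.575, 1.98 and 0 CPM beside 2.975, 3.955, 2.325 and 3.732 CPM. The 0 is fulvestrant replicate 4, the shallow library, where 1 count stood for 1.54 CPM. Tamoxifen at that peak gave 17, 12, 15 and 15 counts (-0.74, SE 0.291), and raloxifene 34, 31, 29 and 25 (0.09, SE 0.246). For tamoxifen it was the last of the IGFBP4 cluster, chr17:40464373-40464573, with 10, 7, 2 and 3 counts beside 17, 24, 17 and 9 with vehicle (-1.46, SE 0.44, edgeR unadjusted p = 0.00132, adjusted p = 1). For raloxifene it was the WIPF2 start-site peak, chr17:40219172-40219377 (0.26, edgeR adjusted p = 1, unadjusted p = 0.0344).

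**Figure D4:**
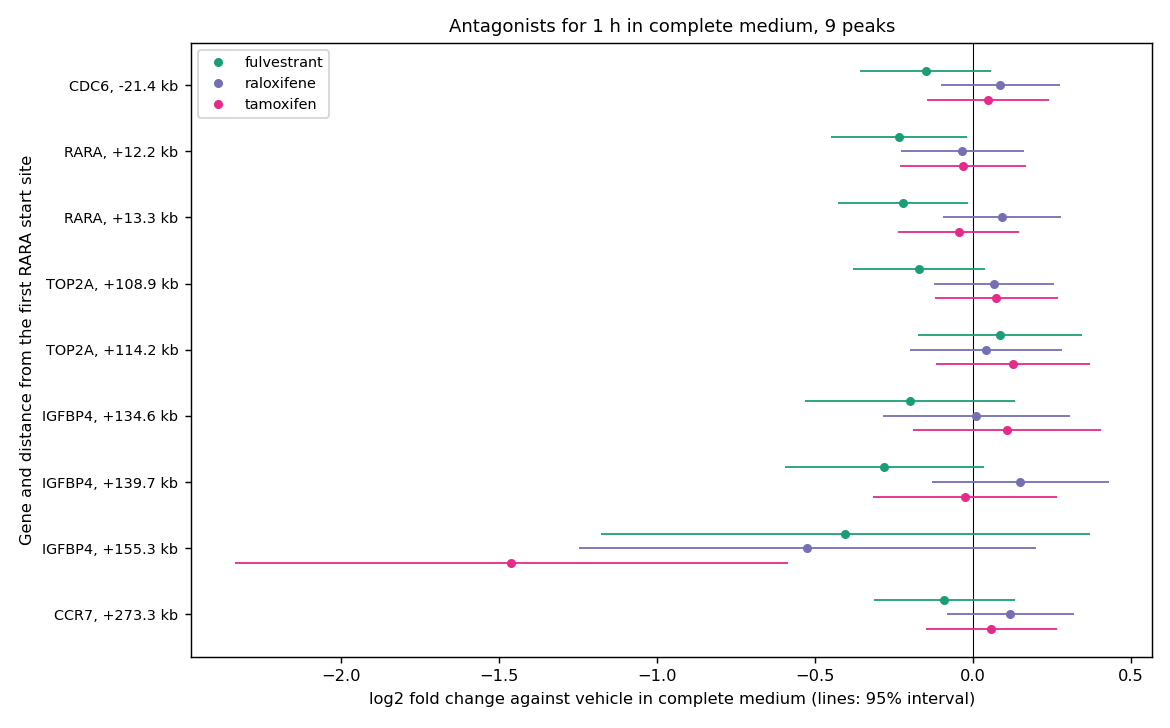
Log2 fold change with 95% interval (lines) of fulvestrant, raloxifene and tamoxifen against vehicle in complete medium at 9 peaks, named by gene and distance from the first RARA start site. Most intervals include 0 and none of the differences passed adjusted p under 0.05; the interval of tamoxifen at the IGFBP4 peak at 155.3 kb, a low-count peak, lies furthest to the left.

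The 3 pairs of antagonists were compared at the same dose and time, and no member was called in any pair. Among all tested peaks 0.000638% (1 peak) was lower with fulvestrant than with raloxifene and 0% higher, and 0% differed in the other 2 pairs. Unadjusted p under 0.05 was reached by 11 members for fulvestrant against raloxifene, 6 for fulvestrant against tamoxifen and 8 for raloxifene against tamoxifen (15.7%, 8.57% and 11.4%), beside 5.16%, 5.27% and 3.92% of all tested peaks, and DESeq2 called 0. Fulvestrant was lower than raloxifene at the stronger RARA peak by a log2 fold change of -0.31 (95% interval from -0.52 to -0.11, adjusted p = 0.965), the smallest p of that pair. The main IGFBP4 peak had -0.43 (from -0.74 to -0.12, adjusted p = 0.965). In these pairs fulvestrant includes its shallow replicate 4. The fulvestrant mean at the stronger RARA peak was 65.28 CPM with that library and 76.75 CPM without it. Against tamoxifen, fulvestrant had -0.18 (from -0.38 to 0.03) at the RARA peak. The smallest p of this pair was at the SMARCE1-side peak chr17:40596595-40596880, where fulvestrant was higher (0.92, from 0.33 to 1.52, adjusted p = 0.934). There the shallow replicate 4 held 10.81 CPM from 7 counts, and the other fulvestrant libraries had a mean of 4.876 CPM. For raloxifene against tamoxifen the smallest p was at chr17:40555661-40555953 inside CCR7 (0.81, edgeR adjusted p = 1), and 53 of 70 members were above 0. Their median was 0.077, against -0.003 over all tested peaks. The members share libraries, so this count is a description only.

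The pathway partners of these genes were counted through peaks within 50 kb. Of 16 genes of retinoid receptors and handling, 316 peaks were tested and 3 were higher with estradiol (0.949%, near the 0.813% of all tested peaks), 2 of them the RARA peaks. The other is near DHRS3, a retinal reductase, at chr1:12600393-12600593 (log2 fold change 2.19, SE 0.305, adjusted p = 2.05e-07). RARB, RARG and the RXR genes, which encode the partner receptors, had none. Among 13 genes of insulin-like growth factor binding and signalling, 7 of 234 tested peaks (2.99%) were higher, 4 of them near IGFBP4 and 3 near IGF1R, the receptor gene, whose top peak had 2.64 (SE 0.367, adjusted p = 2.01e-07). No peak within 50 kb of IGFBP1, IGFBP2, IGFBP3, IGFBP5, IGFBP6, IGF1 or IGF2 was called. For 18 genes of origin licensing and topoisomerases it was 7 of 221 (3.17%), 6 of which are the RARA and IGFBP4 peaks that lie within 50 kb of CDC6 or TOP2A. The other is near CDT1, which loads the helicase together with CDC6 (0.46, SE 0.118, adjusted p = 0.0276). No list had a peak lower with estradiol, and the lists' medians were 0.00, 0.04 and 0.03. Without the genes of the region, 1 of 288, 3 of 215 and 1 of 181 peaks were higher with estradiol. These shares were 0.347%, 1.4% and 0.552%, beside 0.813% of all tested peaks. In the medium comparison the lists without the genes of the region had 30 higher and 27 lower of 288, 24 and 27 of 215, and 18 and 11 of 181. The shares higher were 10.4%, 11.2% and 9.94%, beside 7.93% of all tested peaks.

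Genes whose summed accessibility ran most like that of a member across the 24 libraries were sought among 15282 genes more than 1 Mb away. These sums take all peaks within a gene extended by 5 kb, so the peak sets differ from those of the sums above. CDC6 had 7 peaks here, TOP2A 5 and IGFBP4 6. The points share libraries, groups and depth, and r is a description. For RARA they were CUEDC1 (r = 0.974), NHERF1 (0.963) and CTSD (0.956, encoding the lysosomal protease cathepsin D). For IGFBP4 they were WFIKKN2 (0.958), AMZ1 (0.956) and GREB1 (0.949, a well-known estrogen-induced gene), and GREB1 stood at 146 CPM in starved vehicle, 282 with estradiol and 348 in complete vehicle. CDC6 ran most like RCL1, SLC4A7 and TDP1 (0.977, 0.976 and 0.976) and TOP2A like RNF125, NDUFB11 and TEX54 (0.965, 0.965 and 0.961). Fulvestrant replicate 4 weighed differently in these values. Without it, an alternative added after seeing the data, r was 0.893 to 0.954 for the 3 genes of RARA, 0.939 to 0.948 for those of IGFBP4, 0.874 to 0.893 for those of TOP2A and 0.750 to 0.764 for those of CDC6.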

How the data were processed

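ATAC-seq was read from 24 T47D libraries in 6 groups of 4. The authors deposited 1 table of raw counts per peak and library. Per the submitters' processing notes, cutadapt 1.8.1, Bowtie2 2.4.4 and SAMtools 1.9 were used with build hg38. For the peak caller, the counting tool, duplicates and the transposase offset the answer is "not given in the sources used here", likewise whether peak starts count from 0 or 1, and coordinates are printed as deposited. All per-sample columns were matched to samples by name, and 0 were left over. From these counts, edgeR 4.0.16 (R 4.3.3, limma 3.58.1) fitted 1 quasi-likelihood model with 6 group means to the 156745 of 189403 peaks that passed filterByExpr (minimum count 10, total 15), with TMM scaling and Benjamini-Hochberg adjustment over all of them at 0.05. Standard errors were taken as the log2 fold change over the square root of F, an approximation, and 95% intervals from them. DESeq2 1.42.0, other scalings, filters, designs and fits without single libraries were the alternatives. The fit was tested on simulated data. No library was counted as a copy, since all 36 pairs within groups differed by more than counting noise, with chi-square values of 1.722 to 4.31 for each degree of freedom. Totals of 434598 to 12140005 counts limit the low peaks most, and counting intervals cover counting error only.

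Genes and promoters come from RefSeq tables (GRCh38.p14), whose gene intervals do not separate exons from introns. Named peaks are, for CDC6, RARA, TOP2A and IGFBP4, the peak nearest a start and the highest peak; for each gene up to 3 called peaks with the smallest p for estradiol and for medium; and the smallest p of each antagonist comparison. Likeness is Pearson's r of log2 CPM summed over a gene extended by 5 kb, for genes of at least 10 CPM. One further marker list is not reported here. The members, the gene lists and the tests were chosen with earlier results of these data known.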

Additional observations from a re-analysis of the deposited data

Results flagged for a closer look

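In 5 of 168 groups of 4 libraries (28 named peaks in 6 groups), 1 library stood apart from the other 3 by more than Dixon's 95% critical value for 4 samples, and chance alone gives about 1 in 20. At the stronger RARA peak, chr17:40322369-40322630, complete vehicle replicate 1 held 95.19 CPM and the others 84.47 to 85.53 CPM. In the TNS4 peak chr17:40486104-40486354 the same library held 5.206 CPM and the others 4.593 to 4.651 CPM. At the GJD3-side peak chr17:40371354-40371560 the shallow fulvestrant replicate 4 held 1.544 CPM, the worth of 1 count, and the others 7.019 to 7.903 CPM. Estradiol replicate 1 held 1.966 CPM at the IGFBP4-side peak chr17:40462150-40462362, where the others held 3.031 to 3.175 CPM. Starved vehicle replicate 3, the second shallowest library, held 1.576 CPM at the TNS4-side peak chr17:40507507-40507780, where the others held 0.2266 to 0.3664 CPM. Depth's part in these values was not tested.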

How the results depend on the processing

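For estradiol against vehicle, 9 members were higher, 14 with the replicate set as a term, 12 with the replicate block and 6 to 10 without single libraries. For complete against starved medium, 29 were higher, 12 within replicates 3 and 4, 30 with the replicate block and 20 to 29 without single libraries. The 1 lower member became 0 with the filter at the median abundance, within either replicate set, without the conflicting-label or the shallow libraries and with DESeq2, 2 with the interval extended by 50 kb, and 0 to 1 without single libraries. For estradiol against complete vehicle, the 3 higher became 5 with loess offsets, with only the groups compared and with the extended interval, 6 with the replicate block, 1 with the replicate set, within replicates 3 and 4 and with DESeq2, 0 with the legacy fit and without the conflicting-label libraries, and 1 to 4 without single libraries (1 without estradiol replicate 4). The 9 lower became 15 with the replicate set, 4 within replicates 3 and 4, 5 with DESeq2 and 5 to 10 without single libraries. The antagonist counts were 0 in every alternative run. The causes were not tested. The next counts leave out peaks named only for an antagonist comparison, among them chr17:40555661-40555953, called for medium in 37 of 38 alternatives. Of the other named peaks, 5 of 8 called for estradiol and 8 of 20 called for medium were called in every alternative that gave a value, and none reversed. Same-numbered libraries did not pair by the threshold of 0.1 in every pair (deviations correlated at 0.034 to 0.126 for estradiol against vehicle and 0.060 to 0.108 for estradiol against complete vehicle). As a hint from the data, not the design, 4 of 8 libraries correlated best with their own number in the former, 8 of 8 in the latter, 7 of 8 for raloxifene and from 1 to 5 of 8 in the other comparisons. Depth limits the peaks of few counts, above all in fulvestrant replicate 4.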

Other observations

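The stretches of the same length on either side were counted in the same 3 comparisons. In the one before (39800000 to 40199999), 56 of 65 peaks were tested, 1 was higher with estradiol, and 5 were higher and 7 lower in complete medium. Estradiol against complete vehicle gave 8 higher and 5 lower there. In the one after (40600001 to 41000000), 40 of 54 were tested, 1 was higher with estradiol, and 1 was higher and 10 lower in complete medium. Estradiol against complete vehicle gave 8 higher and 0 lower there. In these 3 comparisons the shares higher were 1.79%, 8.93% and 14.3% before, and 2.5%, 2.5% and 20% after. Over all tested peaks 0.813%, 7.93% and 9.39% were higher and 0.0223%, 9.92% and 7.25% lower. The medians of the medium comparison were 0.08 before and -0.24 after. Whether these stretches differ from the region was not tested.

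WIPF2, which encodes a regulator of actin assembly, lies at the edge of the region and had summed levels of 40.7 ± 4.31 CPM in starved vehicle, 43.5 ± 8.30 with estradiol and 36.2 ± 4.12 in complete vehicle (SD, n = 4).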
